A study of Rattus norvegicus with 42 samples.

Results

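The genes followed here are p53 targets and growth arrest genes in rat metanephric mesenchyme, the embryonic tissue that forms nephrons. The tissue was cultured with or without an inducer. There were 8 genes: Cdkn1a, Mdm2, Ccng1, Gadd45a, Plk2 and Btg2, which are known targets of the transcription factor p53, and the CDK inhibitors Cdkn1b and Cdkn1c. They were chosen by gene symbol, with earlier results of these data known. Each was represented by the probe set with the highest mean over all arrays. Of the 8, 7 had a probe set and all 7 lay above the signal threshold, out of 14218 genes with a probe set and 11388 above it. Btg2 was not analysed here.

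The series held 42 Affymetrix rat arrays in 21 groups of 2 biological replicates. Mesenchyme was microdissected from rat embryos at day 13.5 and freed of the ureteric bud with trypsin and DNase. Strain, genotype and pooling of explants are not stated in the labels. The groups were fresh tissue, tissue cultured without inducer (control) for 1 or 2 days, and tissue cultured with LIF, NGAL or the ANX fraction for 1, 2, 3, 4, 5 or 7 days. LIF is a cytokine of the interleukin-6 family and NGAL is an iron-carrying lipocalin, and the labels do not say what ANX holds. Every culture, controls included, stood on collagen-coated filters in medium that held an FGF, a TGF, T3, dexamethasone and prostaglandin besides insulin, transferrin and selenium. There was no control after day 2, so later days were compared only between inducers or with day 1.

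p53 is held low by the ubiquitin ligase Mdm2, whose gene p53 itself activates, so the pair forms a feedback loop. When p53 is stabilised it activates Cdkn1a, which encodes p21, an inhibitor of cyclin-dependent kinases, together with Ccng1, Gadd45a, Plk2 and Btg2. Cdkn1b (p27) and Cdkn1c (p57) belong to the same CIP/KIP family as p21 but are mainly controlled by other signals; in the developing kidney p57 is known from podocytes leaving the cell cycle, and it is also known from differentiating muscle.

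A p53 response element is built of half-sites, and a perfect half-site was searched on both strands of the RefSeq promoter windows. The windows (build GRCr8) run from 250 bases before to 50 after an annotated start. The windows of 7 of the 8 genes were found, and 3 of them held a half-site of 10 bases; of all 33469 rat promoter windows of this length, 7.98% held one. Those 3 windows are shown because these genes are the ones of the group with a half-site letter by letter, which is a description of the window and not a binding site. The half-site stands in capitals. It begins 201 bases before the start used for Cdkn1a (chr20:7150682-7150981, plus strand). For Ccng1 (chr10:25684827-25685126, minus strand) it begins 232 bases before the start, and for Gadd45a (chr4:97486750-97487049, minus strand) 48.
Cdkn1a: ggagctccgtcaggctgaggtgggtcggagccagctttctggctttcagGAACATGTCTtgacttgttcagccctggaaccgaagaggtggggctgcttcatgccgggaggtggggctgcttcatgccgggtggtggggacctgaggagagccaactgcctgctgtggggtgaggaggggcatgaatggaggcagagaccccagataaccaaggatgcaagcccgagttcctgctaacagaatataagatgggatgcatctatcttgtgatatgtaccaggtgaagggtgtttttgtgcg
Ccng1: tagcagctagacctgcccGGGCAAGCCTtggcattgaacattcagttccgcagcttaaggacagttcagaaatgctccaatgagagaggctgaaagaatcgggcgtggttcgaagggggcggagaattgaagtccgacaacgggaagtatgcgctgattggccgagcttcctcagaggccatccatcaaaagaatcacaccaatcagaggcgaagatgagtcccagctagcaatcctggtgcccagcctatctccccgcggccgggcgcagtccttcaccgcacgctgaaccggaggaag
Gadd45a: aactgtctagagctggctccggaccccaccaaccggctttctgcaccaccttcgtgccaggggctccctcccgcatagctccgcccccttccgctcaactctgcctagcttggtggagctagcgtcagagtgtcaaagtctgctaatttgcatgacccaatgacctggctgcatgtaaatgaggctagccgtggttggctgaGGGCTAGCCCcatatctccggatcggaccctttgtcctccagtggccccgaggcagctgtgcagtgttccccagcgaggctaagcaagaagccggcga
The windows of Mdm2, Plk2, Cdkn1b and Btg2 held none. For Cdkn1a, Cdkn1b and Mdm2 the start used lies inside the RefSeq gene, whose outer start is at 7150820, 169491273 and 55201757. Their windows therefore do not hold all 250 bases before that outer start. The promoter window of Cdkn1c was not used.

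Array medians lay between intensities of 83.3 and 88.4, and the replicates of a group correlated between 0.936 and 0.995 over measured genes. Mesenchyme markers were present in fresh tissue, with Eya1 at 11.05, Sall1 at 10.97 and Wt1 at 11.38 on the log2 intensity scale against a signal threshold of 5.79, while Six2, Cited1 and Osr1 were not analysed here. Erythroid and endothelial markers were also present in fresh tissue. The summed level of 4 erythroid markers was 14.03 there and 6.88 to 12.18 in the cultured groups, and that of 5 endothelial markers was 11.19 there and 8.39 to 10.62 in culture, although Pecam1 and Sox18 had their highest group means in 1-day controls (7.78 and 7.62). Summed levels of 6 skeletal muscle markers were 11.08 to 13.18 in NGAL cultures, 10.99 to 11.42 in ANX cultures and 11.25 to 11.71 in LIF cultures. Summed levels of ureteric bud markers lay between 7.55 and 9.29, and those of macrophage markers reached at most 9.01, over all groups. For the spike-in dap, the log2 ratio of 3' to 5' signal reports on labelling and ranged from 0.77 to 2.35 over the arrays. Its mean was 1.07 in fresh tissue, 1.69 in controls, 1.44 with LIF, 1.36 with NGAL and 1.25 with ANX. The 5S rRNA signal also stood apart in controls: its log2 level was 6.32 to 6.62 in fresh tissue, 7.56 to 10.32 in controls (mean 10.21 on day 2), 7.00 to 9.21 with LIF, 6.85 to 9.63 with NGAL and 6.30 to 7.62 with ANX. Its group means on days 1 and 2 were 8.11 and 10.21 in controls and 7.01 and 8.01 with LIF. They were 6.975 and 9.50 with NGAL, and 7.03 and 7.29 with ANX. The 5S signal thus moved with the comparisons of controls with fresh tissue and of each inducer with control, on day 2 most with ANX and LIF. Its part in their results was not tested.

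Cdkn1a, the gene of the CDK inhibitor p21, was lowest in fresh tissue and in 1-day controls and highest in ANX cultures of days 2 and 3. On the log2 intensity scale used for all levels here, its values were 7.98 and 7.88 in fresh tissue, 7.66 and 7.96 in controls of day 1, and 8.90 and 8.82 in controls of day 2. With ANX they were 9.00 and 8.81 on day 1, 10.71 and 10.47 on day 2, 10.56 and 11.01 on day 3, 10.47 and 10.06 on day 4, 9.70 and 10.18 on day 5, and 9.26 and 9.11 on day 7. All 4 ANX arrays of days 1 and 2 lay above both controls of the same day.

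With LIF, Cdkn1a read 8.71 and 8.20 on day 1, 8.90 and 8.65 on day 2, 9.16 and 9.52 on day 3, 9.74 and 10.06 on day 4, 8.87 and 9.50 on day 5, and 10.03 and 9.21 on day 7. With NGAL it read 8.17 and 8.40, 8.71 and 9.08, 9.67 and 10.48, 9.19 and 10.65, 9.35 and 10.62, and 9.11 and 9.37 on the same 6 days. LIF arrays lay below ANX without overlap on 5 of the 6 days (all but day 7) and NGAL arrays on days 1 to 3. On day 4 the nearest LIF and ANX arrays both read 10.06, so they hardly differed. On day 2 both ANX arrays stood above every LIF, NGAL and control array of that day. In bulk tissue a change in RNA per cell and a change in the share of cells that express the gene cannot be told apart.

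Averaged over days 1 and 2, Cdkn1a rose by 1.42 with ANX against control (2.67-fold, SE 0.27, 95% interval 0.85 to 1.98, limma with Benjamini-Hochberg adjusted p = 0.000899). The difference was 1.10 on day 1 and 1.73 on day 2, and day 1 alone gave an adjusted p of 0.0889. The corresponding differences were 0.28 for LIF (interval -0.28 to 0.85, adjusted p = 0.475) and 0.26 for NGAL (interval -0.31 to 0.82, adjusted p = 0.878). These 3 comparisons share the 4 control arrays. Tested directly over days 1 and 2, NGAL lay 1.16 below ANX (SE 0.27, adjusted p = 0.0250), and LIF lay 1.13 below ANX without passing the test (adjusted p = 0.0559). Over all 6 days LIF was lower than ANX by 0.73 (interval -1.06 to -0.41, adjusted p = 0.00741) and NGAL lower than ANX by 0.55 (interval -0.87 to -0.22, adjusted p = 0.00925), while LIF and NGAL differed by -0.19 (interval -0.52 to 0.14, adjusted p = 0.353).

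The calls for Cdkn1a with ANX against control and for both inducers against ANX held in each fit that left out 1 array (8, 24 and 24 fits). With the 3'/5' ratio as a covariate, the rise with ANX was 1.26 (adjusted p = 0.00135). The other probe set of Cdkn1a gave 2.02 for ANX against control (SE 0.64, adjusted p = 0.0337), -1.45 for LIF against ANX (adjusted p = 0.0305) and -1.08 for NGAL against ANX (adjusted p = 0.0292), so the probe sets had the same direction in these comparisons. In that probe set controls averaged 5.01 on day 1 and 5.24 on day 2, below the signal threshold of 5.79. It was tested only because other groups passed the threshold, up to 8.77 with ANX on day 3. Its values come from the same arrays and are not separate support.

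**Figure D1:**
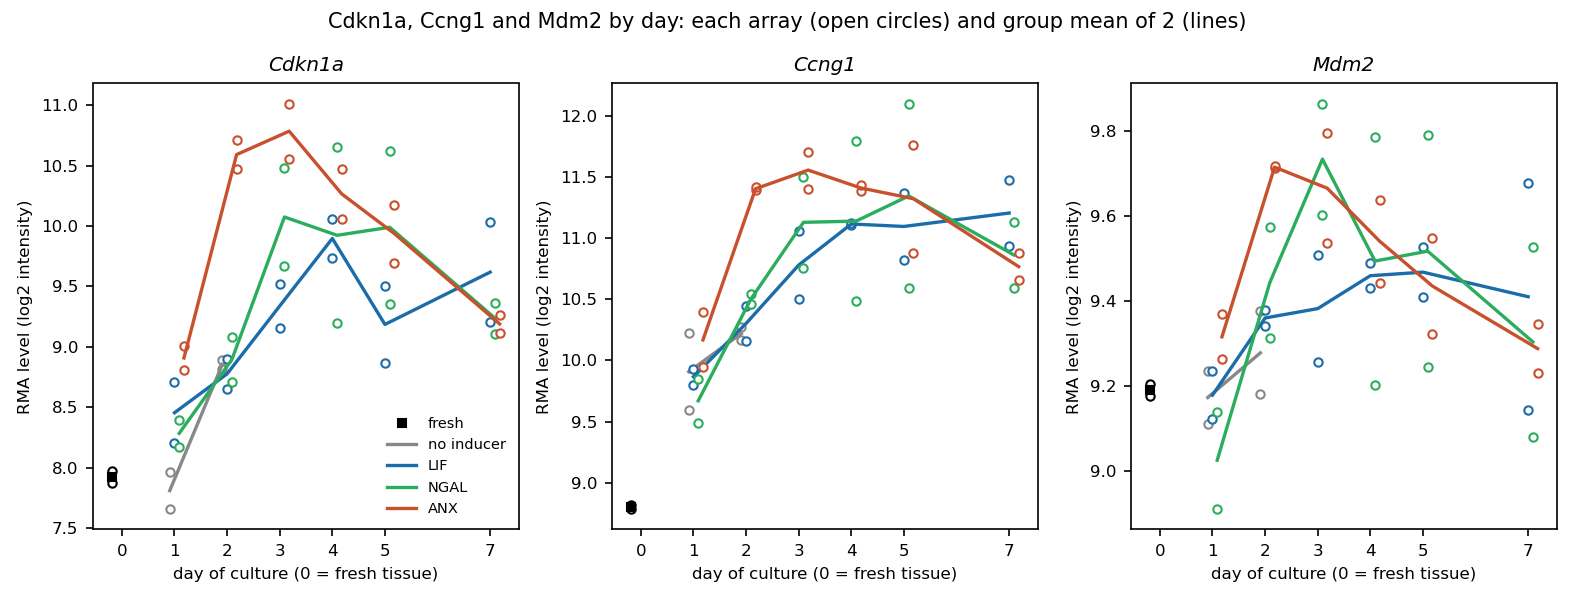
Levels (log2 intensity, y axis) of Cdkn1a, Ccng1 and Mdm2 by day of culture (x axis, 0 is fresh tissue), with open circles for single arrays and lines through the means of 2 replicates. ANX arrays of Cdkn1a on day 2, at 10.71 and 10.47, lie above all other arrays of that day, and the NGAL replicates of days 4 and 5 lie far apart in all 3 panels.

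Ccng1 encodes cyclin G1, a p53 target that acts with a phosphatase on Mdm2. It stood at 8.79 and 8.82 in fresh tissue, at 9.59 and 10.22 in controls of day 1 and at 10.27 and 10.17 in controls of day 2, so every cultured array lay above fresh tissue. With LIF the 2 arrays read 9.80 and 9.93 on day 1, 11.11 and 11.13 on day 4 and 11.48 and 10.93 on day 7. With NGAL they read 9.49 and 9.85 on day 1, 10.59 and 12.10 on day 5 and 10.59 and 11.13 on day 7, and with ANX 9.94 and 10.39 on day 1, 11.39 and 11.42 on day 2, and 10.88 and 10.65 on day 7. ANX was the highest culture on day 2, without overlap with LIF, NGAL or control, and by day 7 its arrays lay below both LIF arrays.

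Against fresh tissue Ccng1 rose by 1.42 in 2-day controls (2.67-fold, SE 0.40, adjusted p = 0.0132) and by 1.10 in the mean of the 3 inducers on day 1 (2.14-fold, SE 0.32, adjusted p = 0.0218), while the 1-day control difference of 1.11 did not pass the test (adjusted p = 0.0985). From day 1 to day 7 it rose by 1.34 with LIF (SE 0.40, adjusted p = 0.0305) and by 1.19 with NGAL (SE 0.40, adjusted p = 0.0426). With ANX the change was 0.60 (interval -0.22 to 1.42, adjusted p = 0.343). Against control over days 1 and 2 the differences were 0.72 with ANX (interval 0.14 to 1.30, adjusted p = 0.0689), 0.02 with LIF and 0.02 with NGAL, and over 6 days LIF minus ANX was -0.38 (adjusted p = 0.188) and NGAL minus ANX was -0.33 (adjusted p = 0.111). The ANX difference from control was called in 4 of 11 alternatives that kept all arrays of the groups compared. These were array weights (adjusted p = 0.0268), a replicate block (0.0256), renewed quantile normalization (0.0491) and only the arrays compared (0.0128). The others did not call it, among them the 3'/5' ratio as a covariate (0.60, adjusted p = 0.134).

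These calls rest on few arrays. The 2-day control rise was lost whichever of its 4 arrays was left out (adjusted p = 0.0596 to 0.0863). The rise of the inducers on day 1 was lost without either fresh array (highest adjusted p = 0.183), the LIF rise to day 7 without LIF day 1 replicate 1, day 1 replicate 2 or day 7 replicate 1 (highest 0.191), and the NGAL rise without any one of its 4 arrays (0.0882 to 0.200). Without 1 array the Ccng1 change from day 1 to day 7 lay between 1.07 and 1.61 with LIF and between 0.92 and 1.46 with NGAL.

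Mdm2, the ubiquitin ligase that restrains p53, spanned 0.71 between its lowest and highest group mean in the probe set used. Its arrays read 9.18 and 9.21 in fresh tissue, 9.11 and 9.24 in controls of day 1, and 9.38 and 9.18 in controls of day 2. With ANX they read 9.26 and 9.37 on day 1, 9.71 and 9.72 on day 2, 9.54 and 9.79 on day 3 and 9.35 and 9.23 on day 7. With LIF the lowest array was 9.12 (day 1) and the highest 9.68 (day 7), and with NGAL the lowest was 8.91 (day 1) and the highest 9.86 (day 3). All 4 ANX arrays of days 1 and 2 again lay above both controls of the same day, but the mean difference of 0.29 (1.22-fold, interval 0.01 to 0.57) did not pass the test (adjusted p = 0.136). The differences were 0.04 with LIF (interval -0.24 to 0.33) and 0.01 with NGAL (interval -0.27 to 0.29), and no pair of inducers passed the test over 6 days. The other probe sets of Mdm2 gave 0.87 (SE 0.33, adjusted p = 0.0727) and 1.14 (SE 0.50, adjusted p = 0.125) for ANX against control. They spanned more, with group means of 7.91 to 9.42 and of 5.97 to 8.21, and differed in sign from the one used elsewhere: 2-day controls against fresh tissue gave 0.09 in the probe set used and -0.72 and -1.46 in the others, and LIF day 7 against day 1 gave 0.23, -0.38 and -0.76, none past the test.

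NGAL replicates of these genes lay far apart on days 3 to 5: the second replicate was higher in Cdkn1a, Ccng1 and Mdm2 on each of these days. Those second replicates had 3'/5' ratios of 0.85, 0.77 and 0.90, against 1.33, 1.48 and 1.47 in the first. Over all groups Cdkn1a was higher in the replicate with the lower ratio in 15 of 21 groups and Mdm2 in 14, where the median measured gene was so in 11, and Ccng1 in 11. The part of labelling in these replicate differences was not tested.

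Gadd45a encodes a growth arrest and DNA damage protein that binds PCNA and p21. It stood at 7.94 and 8.04 in fresh tissue, 8.46 and 9.37 in controls of day 1, and 8.65 and 8.69 in controls of day 2. With ANX it stood at 8.08 and 8.54 on day 1, 7.66 and 7.90 on day 2, 7.69 and 8.16 on day 3, 8.15 and 8.03 on day 4, 8.60 and 9.41 on day 5 and 8.58 and 8.91 on day 7. With LIF the 4 arrays of days 1 and 2 lay between 8.07 and 8.38, and with NGAL between 8.58 and 9.46. So Gadd45a lay on the opposite side of the control from Cdkn1a in ANX cultures of days 1 and 2, with all 4 arrays below the mean of the controls of their day and no overlap on day 2.

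Gadd45a fell by 0.75 with ANX against control (0.596 times the control, SE 0.23, adjusted p = 0.0226). The call was lost in 5 of 8 fits that left out 1 array: control day 1 replicate 2 (-0.52, adjusted p = 0.116), control day 2 replicate 1 or 2, ANX day 1 replicate 1, or ANX day 2 replicate 1. LIF gave -0.60 (adjusted p = 0.0589) and NGAL 0.06 (adjusted p = 0.970). Over 6 days NGAL was higher than ANX by 0.35 (SE 0.13, adjusted p = 0.0419), a call that 15 of 24 fits without 1 array lost (highest adjusted p = 0.102). NGAL and ANX did not overlap on any of the 6 days, but NGAL was the higher on 4 of them, days 1 to 4, and the lower on days 5 and 7. The test of inducer by day did not pass (adjusted p = 0.623, unadjusted p = 0.0190), and neither did that of day (adjusted p = 0.344).

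Plk2, a polo-like kinase of centriole duplication that serum and p53 induce, was lower with LIF than with the other inducers. Fresh tissue read 9.39 and 9.38, controls 9.21 and 9.23 on day 1 and 9.01 and 8.79 on day 2. LIF cultures read 9.02 and 8.79 on day 1, 7.97 and 8.19 on day 2, 7.84 and 8.22 on day 3, 7.96 and 8.78 on day 4, 8.03 and 8.42 on day 5, and 7.70 and 8.16 on day 7. NGAL cultures read 9.30 and 9.74, 9.21 and 9.19, 9.36 and 9.56, 8.76 and 9.16, 8.35 and 9.34, and 8.80 and 8.51 on those days. In ANX cultures the values were 9.51 and 9.77, 9.42 and 9.29, 7.99 and 9.75, 8.53 and 8.57, 8.39 and 9.14, and 8.28 and 8.19. The LIF mean was the lower on all 6 days in both pairs, without overlap on 4 days with NGAL and on 3 with ANX, and the ANX replicates of day 3 lay far apart.

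Over 6 days Plk2 was lower with LIF by 0.85 against NGAL (0.554 times, SE 0.15, adjusted p = 0.000103) and by 0.65 against ANX (0.639 times, SE 0.15, adjusted p = 0.0144), and both calls held in all 24 fits without 1 array. Fitted on only the arrays compared, LIF against ANX had adjusted p = 0.0538. NGAL minus ANX was 0.20 (interval -0.11 to 0.52, adjusted p = 0.301). Against control over days 1 and 2 LIF was -0.57 (adjusted p = 0.118), NGAL 0.30 (adjusted p = 0.843) and ANX 0.44 (adjusted p = 0.247). From day 1 to day 7 Plk2 fell by 1.40 with ANX (0.378 times, SE 0.37, adjusted p = 0.0131). That fall did not pass the test without ANX day 1 replicate 2 (adjusted p = 0.109), day 7 replicate 1 or day 7 replicate 2. The changes with LIF and NGAL were -0.98 (adjusted p = 0.0913) and -0.86 (adjusted p = 0.119).

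**Figure D2:**
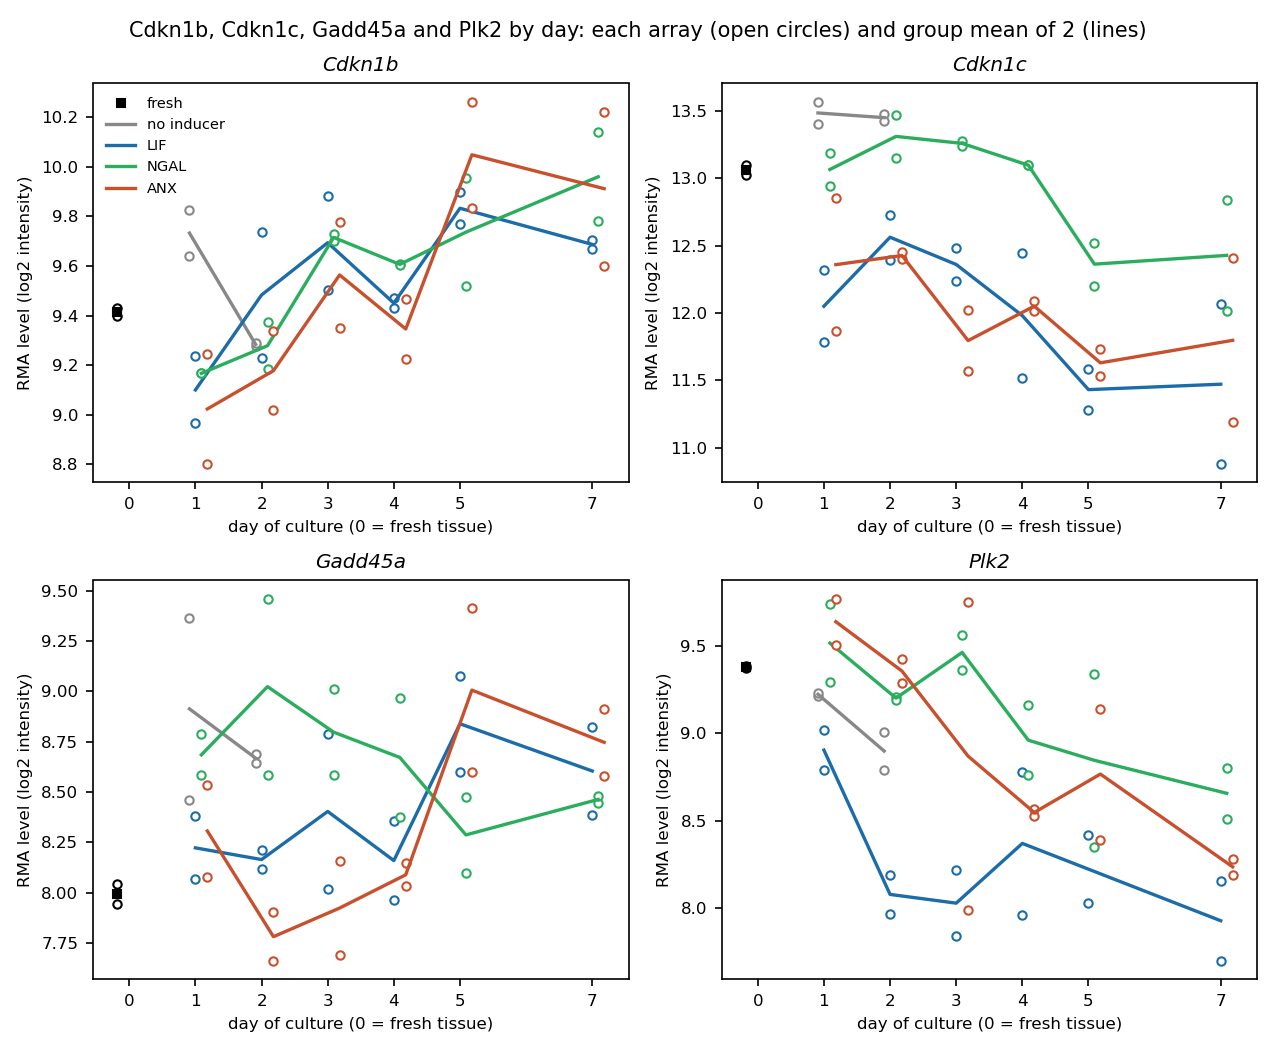
Levels (log2 intensity, y axis) of Cdkn1b, Cdkn1c, Gadd45a and Plk2 by day of culture (x axis, 0 is fresh tissue), with open circles for single arrays and lines through the means of 2 replicates. In the Cdkn1c panel NGAL arrays up to day 4 lie at 12.94 or above, and all LIF and ANX arrays at 12.85 or below.

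Cdkn1b, the gene of p27, which holds cells in G1, had its lowest group mean of each inducer on day 1. Its arrays read 9.43 and 9.40 in fresh tissue, 9.64 and 9.82 in controls of day 1 and 9.28 and 9.29 in controls of day 2. Day 1 values were 8.96 and 9.24 with LIF, 9.17 and 9.17 with NGAL, and 8.80 and 9.25 with ANX. Day 7 values were 9.70 and 9.67 with LIF, 10.14 and 9.78 with NGAL, and 10.22 and 9.60 with ANX, so day 7 lay above day 1 without overlap under each inducer.

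From day 1 to day 7 Cdkn1b rose by 0.89 with ANX (1.85-fold, SE 0.21, adjusted p = 0.00669) and by 0.79 with NGAL (1.73-fold, SE 0.21, adjusted p = 0.0132), and changed by 0.59 with LIF (interval 0.15 to 1.02, adjusted p = 0.0742). Leaving out ANX day 1 replicate 1 (0.67, adjusted p = 0.115) or day 7 replicate 1 (0.58, adjusted p = 0.135) ended the ANX call. The NGAL call was lost without NGAL day 1 replicate 1, day 1 replicate 2 or day 7 replicate 1 (highest 0.185). No pair of inducers differed in the test over 6 days, with intervals of -0.21 to 0.14 for LIF minus NGAL, -0.15 to 0.21 for LIF minus ANX and -0.11 to 0.24 for NGAL minus ANX. Against control the differences over days 1 and 2 were -0.22, -0.29 and -0.41 with LIF, NGAL and ANX, the last with adjusted p = 0.0550. Its other probe set lay below the threshold, and with the mean of both probe sets the day 7 changes were 0.46 with ANX (adjusted p = 0.143) and 0.36 with NGAL (adjusted p = 0.254).

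Cdkn1c, the gene of p57, had its highest levels without inducer and fell with LIF and with ANX. Its arrays read 13.10 and 13.03 in fresh tissue, 13.40 and 13.57 in controls of day 1, and 13.47 and 13.43 in controls of day 2. LIF cultures read 11.78 and 12.32 on day 1, 12.39 and 12.73 on day 2, 12.24 and 12.48 on day 3, 11.52 and 12.45 on day 4, 11.58 and 11.28 on day 5, and 10.88 and 12.06 on day 7. ANX cultures read 11.87 and 12.85, 12.40 and 12.46, 11.57 and 12.02, 12.09 and 12.01, 11.73 and 11.53, and 11.19 and 12.41 on those days. NGAL cultures read 13.19 and 12.94, 13.47 and 13.15, 13.28 and 13.24, 13.10 and 13.10, 12.20 and 12.52, and 12.84 and 12.02. Every LIF and ANX array lay below every fresh and control array, whereas NGAL arrays stayed between 12.94 and 13.47 up to day 4.

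Against control over days 1 and 2 Cdkn1c fell by 1.16 with LIF (0.447 times, SE 0.26, adjusted p = 0.00254) and by 1.07 with ANX (0.475 times, SE 0.26, adjusted p = 0.00544). NGAL gave -0.28 (interval -0.82 to 0.26, adjusted p = 0.856). Tested on single days, the LIF difference did not pass on day 2 (-0.89, adjusted p = 0.130). The ANX difference passed on neither day 1 (-1.13, adjusted p = 0.0657) nor day 2 (-1.02, adjusted p = 0.101). The LIF call held in all 8 fits without 1 array. The ANX value was -0.83 (adjusted p = 0.0509) without ANX day 1 replicate 1. LIF minus NGAL over days 1 and 2 was -0.88 (adjusted p = 0.0482), and NGAL minus ANX was 0.79 (adjusted p = 0.113). Over 6 days LIF was lower than NGAL by 0.94 (SE 0.15, adjusted p = 3.09e-05) and NGAL was higher than ANX by 0.91 (1.88-fold, SE 0.15, adjusted p = 7.44e-05). Both held in all 24 fits without 1 array, and NGAL did not overlap with LIF or with ANX on 5 of 6 days. LIF minus ANX was -0.03 (interval -0.34 to 0.28). From day 1 to day 7 the changes were -0.58, -0.64 and -0.56 with LIF, NGAL and ANX, none past the test.

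Cell type markers also differed between inducers, and ureteric bud markers are not counted here. Of all measured genes, 15.3% were called higher and 22.2% lower with NGAL than with ANX, and 20.3% lower with LIF than with NGAL. Of 6 measured skeletal muscle markers 6 were higher with NGAL than with ANX and 4 were lower with LIF than with NGAL, and of 3 measured podocyte markers 2 were higher with NGAL than with ANX and 2 lower with LIF than with NGAL. Of 6 mesenchyme markers 5 were lower with NGAL than with ANX. Of erythroid, endothelial and macrophage markers, 3 of 4, 3 of 5 and 3 of 4 were higher with NGAL than with ANX, and 3, 3 and 2 were lower with LIF than with NGAL. Against control, where Cdkn1c fell with LIF and with ANX, 4 of 4 erythroid markers fell with both. Of 5 endothelial markers 4 fell with LIF and 3 with ANX. The shares of all measured genes that fell were 12.6% with LIF and 9.12% with ANX. In fresh tissue the summed podocyte level was 8.98, and on days 1 and 2 it was 9.68 and 10.33 in controls. It was 9.33 and 9.98 with NGAL, 9.18 and 8.83 with LIF, and 9.05 and 9.04 with ANX on those days. Of the 3 podocyte markers, Synpo was highest in 2-day controls (9.98), Podxl in fresh tissue (7.53) and Ptpro with NGAL on day 4 (7.49). For muscle markers the sum was 10.24 in fresh tissue, and 11.06 and 11.78 in controls of days 1 and 2. The summed muscle level was highest with NGAL on day 4 (13.18) and lay at 11.08 on day 1, when Cdkn1c in NGAL cultures averaged 13.07. The part of these cell types in the Cdkn1c differences was not tested.

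Counted by comparison, the genes were called as follows, with the share of all 11388 measured genes called beside each count. Entry into culture called none of the 7 genes in 1-day controls (6.06% of measured genes, 3.80% higher and 2.26% lower; 2 of the 7 at an unadjusted p under 0.05), 1 in 2-day controls, Ccng1 (22.2%, 9.47% higher and 12.7% lower), and 1 in the mean of the 3 inducers on day 1, again Ccng1 (14.6%, 8.44% higher and 6.21% lower). Against control, LIF called 1 gene, Cdkn1c (24.0%, 11.4% higher and 12.6% lower). ANX called 3, Cdkn1a upward and Cdkn1c and Gadd45a downward (20.3%, 11.2% higher and 9.12% lower). NGAL against control called none of the 7 and none of all measured genes by limma (0%, 0% higher and 0% lower), with 799 genes and none of the 7 at an unadjusted p under 0.05, and at most 23 genes called under the other settings. Fitted on only the arrays compared, ANX against control called all 7 genes (24.5% of measured genes in that fit) and LIF 3 (27.2%).

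Between inducers over 6 days, LIF against NGAL called 2 genes, Cdkn1c and Plk2, both lower with LIF (41.7%, 21.5% higher and 20.3% lower). LIF against ANX also called 2, Cdkn1a and Plk2, both lower with LIF (5.01%, 1.63% higher and 3.37% lower). NGAL against ANX called 3, Cdkn1c and Gadd45a higher and Cdkn1a lower with NGAL (37.5%, 15.3% higher and 22.2% lower). In the direct tests over days 1 and 2, LIF minus NGAL called 1 gene (5.17%), LIF minus ANX none (0.623%) and NGAL minus ANX 1 (2.12%). Read against these shares, 2 of 7 in LIF against NGAL and 3 of 7 in NGAL against ANX lay near the background, while 2 of 7 in LIF against ANX lay above it, on a count of 2 genes.

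Over time, day 7 against day 1 called 1 gene with LIF (10.9%, 4.39% higher and 6.51% lower), 2 with NGAL (15.5%, 6.92% higher and 8.60% lower) and 2 with ANX (13.8%, 6.40% higher and 7.43% lower). The F-test over the 6 days, averaged over inducers, called 6 of the 7 genes, all but Gadd45a (27.8%). Its adjusted p was 0.000111 for Cdkn1b, 0.000123 for Cdkn1a, 0.000460 for Ccng1, 0.00618 for Cdkn1c, 0.00958 for Plk2 and 0.0489 for Mdm2. The other probe sets of Mdm2 did not pass this F-test (adjusted p = 0.265 and 0.222), nor did the mean of its probe sets (0.212). With 1 array left out, 24 of 36 fits lost the Mdm2 call (adjusted p up to 0.131). The other calls held in all 36, and for Cdkn1a the other probe set gave adjusted p = 0.0577. The F-test of inducer by day called none of the 7 (0.0351% of measured genes, 4 genes in all), with unadjusted p of 0.0161 for Cdkn1a and 0.0190 for Gadd45a, so that a different time course under the 3 inducers was not shown for any of the 7.

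**Figure D3:**
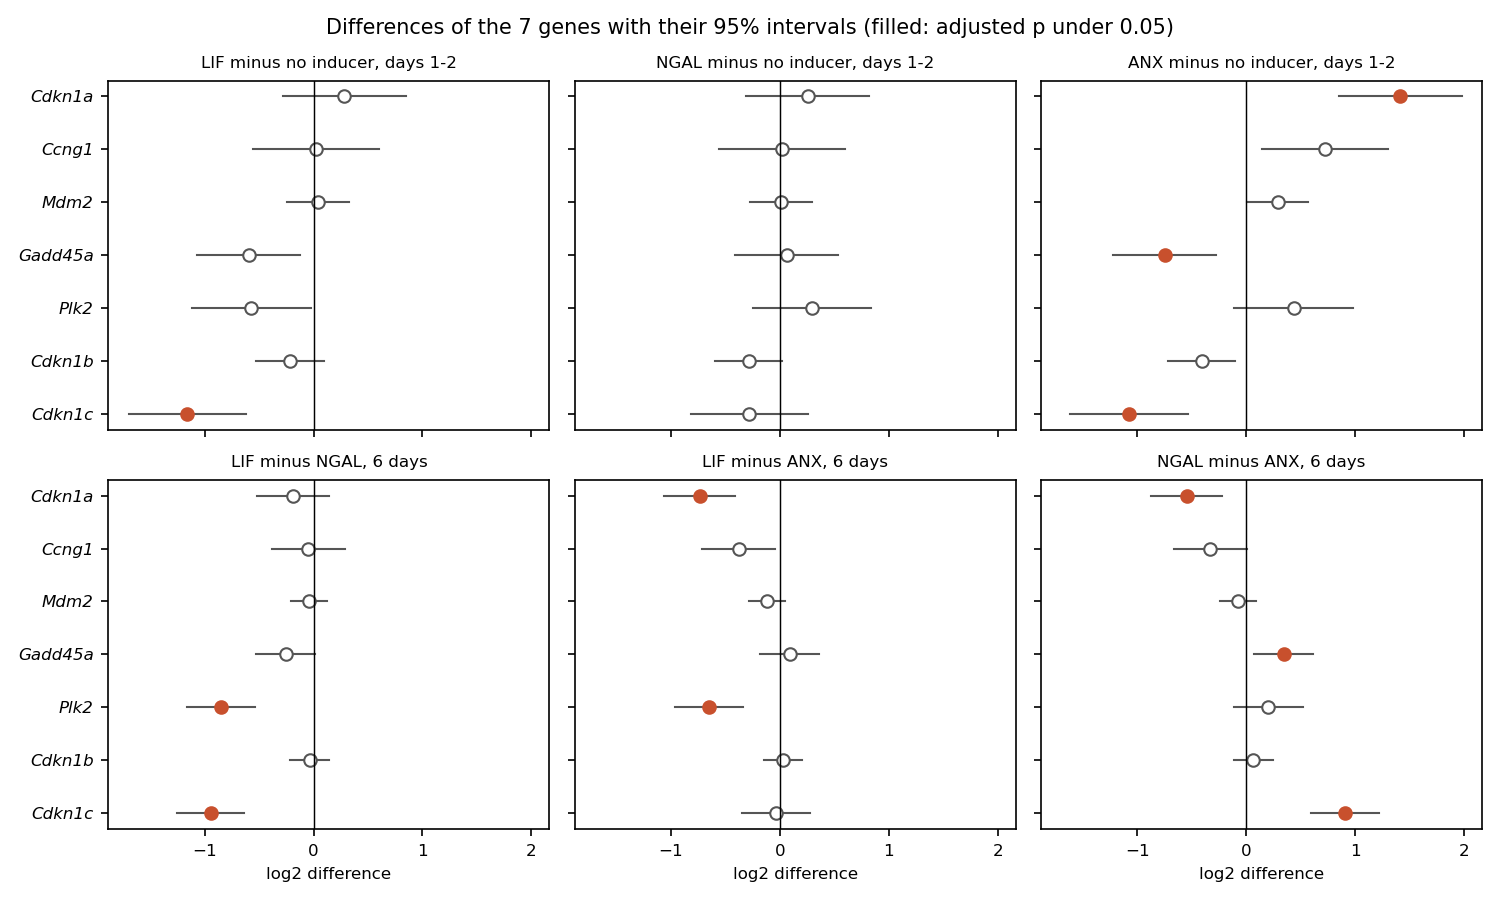
Log2 differences (x axis) of the 7 genes (rows) with 95% intervals, for each inducer against control over days 1 and 2 (upper row) and between inducers over 6 days (lower row), filled where the adjusted p was under 0.05. Cdkn1a is at 1.42 with ANX and near 0.3 with LIF and NGAL, and Cdkn1c is at -1.16 and -1.07 with LIF and ANX.

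Of other known p53 targets, 32 genes were listed and 20 measured. Against control 5 of the 20 rose with ANX and none fell, where 11.2% of all measured genes rose. These were Cd82, a tetraspanin (0.59, adjusted p = 0.00515), Phlda3, an inhibitor of Akt (0.60, adjusted p = 0.00983), Sesn1, a sestrin of the stress response (0.49, adjusted p = 0.0197), Aen, an apoptosis-linked nuclease (0.67, adjusted p = 0.0210), and Ephx1, an epoxide hydrolase (0.61, adjusted p = 0.0337). The list's median was 0.28, against 0.03 over all measured genes. LIF and NGAL called none of the 20 against control, with medians of 0.00 and 0.09. Of all measured genes LIF called 24.0% and NGAL 0%, so the NGAL count is not particular to these targets.

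Over 6 days 7 of the 20 targets were lower with LIF than with ANX and none was higher, where 3.37% of all genes were lower. They included Cd82 (-0.53, adjusted p = 0.000304), Ephx1 (-0.64, adjusted p = 0.00191), Gdf15, a secreted stress cytokine (-0.65, adjusted p = 0.00712), and Pml, a nuclear body protein (-0.17, adjusted p = 0.0114). NGAL was lower than ANX in 8 of the 20 and higher in none, where 22.2% of all genes were lower, among them Cd82 (-0.40) and Tp53i11 (-0.45). LIF and NGAL differed in both directions, 2 higher and 5 lower with LIF, where 21.5% of all genes were higher and 20.3% lower. The median was -0.15 in LIF against ANX and -0.15 in NGAL against ANX, beside -0.01 and -0.04 over all genes. These comparisons share the ANX arrays, and no test compared the list with other genes.

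**Figure D4:**
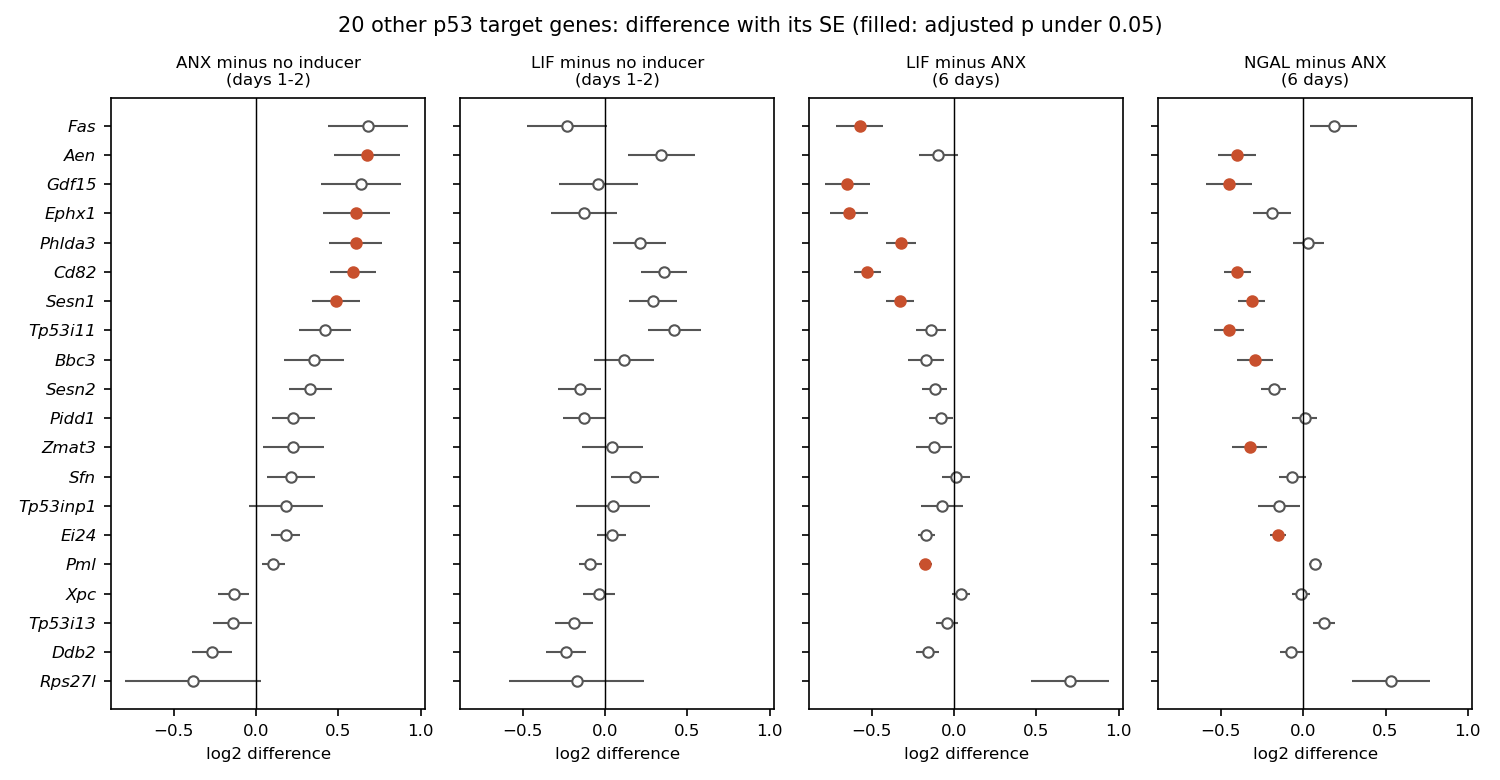
Log2 differences (x axis) of 20 other measured p53 target genes (rows) with their SE, for ANX and LIF against control over days 1 and 2 and for LIF and NGAL against ANX over 6 days, filled where the adjusted p was under 0.05. All filled points lie above 0 for ANX against control and below 0 in the comparisons with ANX, and none is filled for LIF against control.

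On entry into culture 1 of these 20 targets was called in 1-day controls (Cd82, 0.70; 6.06% of all genes), 4 in 2-day controls (22.2%) and 5 in the inducers on day 1 (3 higher and 2 lower; 14.6%). In 2-day controls Cd82 (1.16), Sesn2 (0.74) and Zmat3 (0.76) rose and Ddb2 fell by 0.75. From day 1 to day 7 Cd82 rose under each inducer, by 1.35 with LIF, 1.90 with NGAL and 1.46 with ANX. It was part of 3, 1 and 2 called targets, all upward, where 4.39%, 6.92% and 6.40% of all genes rose. Regulators of p53 (8 of 10 measured) moved otherwise. In 2-day controls 4 fell, the checkpoint kinases Chek1 (-0.72) and Chek2 (-1.22), Atr (-0.70) and Tp53bp1 (-0.77). With ANX against control 1 fell, Ppm1d, a phosphatase that p53 induces (-0.31, adjusted p = 0.0373), and with LIF or NGAL none was called. In NGAL against ANX 5 were lower, among them Chek2 (-0.53) and Usp7 (-0.34). In LIF against NGAL 2 were higher, and in LIF against ANX none was called. Of all measured genes, 12.7% fell in 2-day controls and 9.12% with ANX against control. Against control LIF called 24.0% of all measured genes and NGAL 0%. The shares were 22.2% lower in NGAL against ANX, 21.5% higher in LIF against NGAL and 5.01% called in LIF against ANX.

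Among INK4 inhibitors and pocket proteins (8 measured), Cdkn2a rose with ANX against control by 1.21 (adjusted p = 0.000131) and Cdkn2b by 0.94 (adjusted p = 0.00451). Cdkn2a encodes p16 and p19ARF, the latter an inhibitor of Mdm2, and the probe set was not assigned to either product. With LIF Cdkn2b rose by 0.64 and Rbl2 fell by 0.69. Over 6 days Cdkn2a was lower than with ANX by 0.73 with LIF (adjusted p = 0.000191) and by 0.85 with NGAL (adjusted p = 5.26e-06). In all, 6 of the 8 were called in NGAL against ANX (4 higher, 2 lower), 4 in LIF against NGAL (all lower) and 1 in LIF against ANX. The shares of all measured genes called were 37.5% (15.3% higher, 22.2% lower), 41.7% (20.3% lower) and 5.01%.

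Of 15 other GADD45, BTG/TOB and growth arrest genes, 7 were called with ANX against control (2 higher, 5 lower) and 6 with LIF (2 higher, 4 lower). Of all measured genes 11.2% were higher and 9.12% lower with ANX, and 11.4% higher and 12.6% lower with LIF. Btg3, an antiproliferative relative of Btg2, rose with ANX by 0.75 and with LIF by 0.58, and Gas6, a growth-arrest-specific ligand, fell by 1.93 and 2.02. Foxo3, a transcription factor of arrest genes, rose from day 1 to day 7 by 0.87 with LIF, 0.87 with NGAL and 1.18 with ANX, and Klf4 by 1.26, 1.74 and 1.20. Those later rises were part of 3, 4 and 4 called genes, of which 1 with NGAL fell. The shares of all genes called were 10.9%, 15.5% and 13.8%.

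Cell-cycle genes moved beside them. Of 23 measured proliferation genes, 18 fell in 2-day controls against fresh tissue and none rose, with a median of -0.76. In that comparison 12.7% of all measured genes fell. From day 1 to day 7, 16 of the 23 fell with LIF, 17 with NGAL and 10 with ANX, and none rose. Birc5, for example, changed by -0.82, -1.03 and -0.89. The shares of all genes that fell were 6.51%, 8.60% and 7.43%. Against control over days 1 and 2, 5 rose and 1 fell with LIF, and 4 rose and 1 fell with ANX, among them Pcna (0.50 and 0.41) and Mcm7 (0.52 and 0.42), where 11.4% of all genes rose with LIF and 11.2% with ANX. Between inducers 14 of the 23 were lower with NGAL than with ANX, 10 higher with LIF than with NGAL and none called in LIF against ANX. The shares of all genes were 22.2% lower, 21.5% higher and 5.01% called. Of 9 measured G1 cyclins and CDKs, 6 fell in 2-day controls, where 12.7% of all genes fell. Ccne1 rose with LIF (0.76) and ANX (0.52) against control and fell by 1.16, 0.99 and 1.13 from day 1 to day 7, while Ccnd1 rose by 3.50, 4.39 and 3.78.

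Further lists were counted because Plk2 is also an immediate early gene and Cdkn1c also a glucocorticoid target, with dexamethasone in every culture. Of 13 measured immediate early genes, 6 were lower and 2 higher with LIF than with NGAL. With LIF 3 were lower than with ANX, among them Nr4a1 (-0.68). Of all measured genes, 20.3% were lower and 21.5% higher with LIF than with NGAL, and 3.37% lower than with ANX. Of 9 measured glucocorticoid targets, 3 fell with LIF against control, Klf9 (-0.98), Errfi1 (-0.87) and Per1 (-0.36). With ANX Klf9 (-0.77) and Errfi1 (-0.69) fell and Fkbp5 rose (0.38). Against control 12.6% of all genes fell with LIF, and 9.12% fell and 11.2% rose with ANX. Over 6 days 4 of the 9 targets were higher and 2 lower with NGAL than with ANX, among them Errfi1 (0.93) and Mt2A (-1.17). In that comparison 15.3% of all genes were higher and 22.2% lower. None of the 9 was called in LIF against ANX.

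Ordered by group mean, Cdkn1a ran from 7.81 in 1-day controls to 10.78 with ANX on day 3, and Ccng1 from 8.80 in fresh tissue to 11.56 with ANX on day 3. Cdkn1c ran from 11.43 with LIF on day 5 to 13.48 in 1-day controls, and Plk2 from 7.93 with LIF on day 7 to 9.64 with ANX on day 1. Mdm2 spanned 0.71, Cdkn1b 1.03 and Gadd45a 1.24 between their lowest and highest group means. Neighbouring groups in these orders rarely differed beyond the replicate spread: of 20 neighbouring pairs per gene, a gap larger than the pooled replicate SD was found once for Ccng1, between fresh tissue and NGAL day 1 (0.87 against an SD of 0.42), once for Cdkn1c, between fresh tissue and LIF day 2 (0.50 against 0.39), and not for the other genes.

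Across the 21 group means, which share arrays of 1 series and are given as a description, Cdkn1a ran closest to Ccng1 (Pearson r = 0.92), Phlda3 (0.90) and Ano3 (0.89), and Mdm2 closest to Cdkn1a (0.89), Ano3 (0.83) and Ccng1 (0.81). Ccng1 ran closest to Zmat3 (0.93), Abhd4 (0.93) and Cdkn1a (0.92). The remaining genes followed other patterns. Cdkn1c ran closest to Il11ra1 (0.95), Ssbp2 (0.95) and Pcdh18 (0.94), and Plk2 to Glce (0.90), B4galt6 (0.89) and Snx4 (0.89). Gadd45a ran closest to Mat2b (0.82), Jade1 (0.80) and Itprid2 (0.79), and Cdkn1b to Zfp110 (0.87), Zfp457 (0.84) and Il3ra (0.83). Cdkn1a correlated at -0.29 with Gadd45a, -0.19 with Plk2, 0.21 with Cdkn1b and -0.44 with Cdkn1c.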

How the data were processed

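Total RNA of 42 samples was hybridised to single-colour Affymetrix arrays. Deposited values are intensity values that the authors made with robust multichip analysis (RMA), per the series design and the submitters' processing notes, with no version. They ran from 7.6 to 17972, which is a linear range, and were put on the log2 scale here. The platform's table, with symbols updated through RefSeq, gave 1 gene to 20832 of 31099 probe sets. The probe set of highest mean stood for a gene, and a gene was tested if its highest group mean passed log2 5.79, the 40th percentile of the whole table. Precision is limited by 2 arrays a group; there is no read depth.

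All comparisons used limma 3.58.1 under R 4.3.3, with all 42 arrays in 1 fit with 21 group means, empirical Bayes variances with a trend, two-sided tests, and Benjamini-Hochberg adjustment over all measured genes, called under 0.05. The script was tested on simulated data. The replicates are biological per the series design. Their numbers pair no samples by the labels.

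The 8 genes, the context lists (p53 regulators, other p53 targets, INK4 inhibitors and pocket proteins, GADD45, BTG/TOB and growth arrest genes, G1 cyclins and CDKs, proliferation, immediate early genes, glucocorticoid targets, cell type markers) and the tests were chosen with earlier results of these data known. The rule for named genes took these 8, up to 4 called genes of a list with the smallest adjusted p per comparison, and the 3 measured genes whose 21 group means correlate best with each gene. The list genes printed are those or a part of them, and a gene named in 1 comparison is also given in others. Alternatives were no filter, a stricter filter (60th percentile), only the arrays compared, array weights, probe sets averaged per gene, renewed quantile normalization, a replicate block, no variance trend, the 3'/5' ratio as a covariate, single control days, each array left out, and, added after seeing the data, the genes' other probe sets.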

Additional observations from a re-analysis of the deposited data

Results flagged for a closer look

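The effects of the inducers against control over days 1 and 2 differed between inducers for 2 genes by a test of the difference itself. For Cdkn1c, LIF minus NGAL was -0.88 (SE 0.26, limma with Benjamini-Hochberg adjusted p = 0.0482), with effects of -1.16 and -0.28 and all 4 LIF arrays below the controls of their day. For Cdkn1a, NGAL minus ANX was -1.16 (SE 0.27, adjusted p = 0.0250), with effects of 0.26 and 1.42.

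For Plk2 all 4 LIF arrays of days 1 and 2 lay below both controls of the same day, and all 4 NGAL and all 4 ANX arrays lay above them. The effects were -0.57 with LIF, 0.30 with NGAL and 0.44 with ANX, none past the test alone. The differences between these effects did not pass the test over days 1 and 2 (LIF minus NGAL -0.87, adjusted p = 0.0539; LIF minus ANX -1.01, adjusted p = 0.0889). Groups of 2 arrays are too small for a test of single outlying arrays.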

How the results depend on the processing

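Of 2338 values of single genes under an alternative, 2196 kept their direction and side of the threshold or were uncalled in both, 90 lost the call, 52 gained one and none reversed. The counts of the 7 genes called moved as follows. With array weights they became 2 (1-day controls against fresh), 4 (2-day controls), 4 (inducers on day 1), 3 (LIF against control), 5 (ANX against control), 0 (LIF day 7) and 0 (NGAL day 7), where 16.6%, 54.1%, 33.0%, 33.1%, 32.0%, 2.88% and 7.33% of all measured genes were called. With only the arrays compared they became 1, 5, 2, 3, 7, 0 and 0 in the same order, 1 for ANX day 7 and 1 for LIF against ANX, with 7.76%, 51.4%, 18.0%, 27.2%, 24.5%, 0.263%, 1.26%, 5.15% and 2.76% of all genes. Renewed quantile normalization gave 2 for LIF and 5 for ANX against control and 3 for LIF day 7 (25.8%, 22.1% and 11.5% of all genes), and the 3'/5' covariate gave 2 for 2-day controls, 2 for LIF against control and 3 for LIF day 7 (14.7%, 24.1% and 12.2%). The stricter filter gave 2 for LIF day 7 (13.0%), and the mean of probe sets gave 1 for NGAL and 1 for ANX day 7 (14.7% and 13.9%). Day 1 alone gave 1 for ANX against control (6.50%), and day 2 alone gave 0 for LIF and 1 for ANX (8.14% and 5.26%).

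Leaving out 1 array gave 0 to 0 for 1-day and for 2-day controls, 0 to 1 for inducers on day 1, 1 to 2 for LIF, 0 to 0 for NGAL and 1 to 4 for ANX against control. Day 7 counts were 0 to 2 with LIF, 0 to 1 with NGAL and 0 to 1 with ANX. Counts between inducers were 2 to 3 (LIF against NGAL), 2 to 2 (LIF against ANX) and 2 to 4 (NGAL against ANX), and F-test counts 5 to 6 (day) and 0 to 0 (inducer by day). Over all measured genes the number called with ANX against control was 2309 and ranged from 599 to 3645 over the alternatives, and from 1115 to 2579 with 1 array left out. The cause of these shifts was not tested.

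The labels do not say that replicate numbers pair the samples, and not every pair of groups correlated over 0.1, so they were not treated as paired: over 210 pairs the correlation of same-numbered deviations was -0.65 to 0.74 (median 0.07, 88 over 0.1). As a hint from the data, 36 of 42 arrays matched best an array of their own number. The 2 arrays of a group mirror each other around their mean and match alike, so these are not separate matches. With the replicate block, 2 genes were called in 1-day controls (Ccng1 and Gadd45a), 2 in LIF against control (Gadd45a gained) and 3 in LIF day 7 (Cdkn1a and Plk2 gained), with 8.60%, 27.1% and 13.7% of all genes; with Ccng1 in ANX against control (adjusted p = 0.0256), 6 values gained a call, and none of 98 lost one.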
